A study of Mus musculus with 13 samples.

Results

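The 10 genes described here form the core of the decision to leave G1 of the cell cycle. They are the D-type cyclins *Ccnd1* and *Ccnd3*, their kinases *Cdk4* and *Cdk6*, the E-type cyclins *Ccne1* and *Ccne2*, their kinase *Cdk2*, the transcription factor *E2f1*, and the pocket proteins *Rb1* and *Rbl1*. They are named by their role rather than by a threshold on their values, and all 10 were found among the 13222 genes of the table. RNA was measured in cultured 4T1-Thy1.1 cells, a mouse triple negative mammary carcinoma line that carries a Thy1.1 transgene. Cells were grown with serum, in DMEM/F12 by the sample labels and in RPMI by the general methods, and were left untreated (control, n = 3), or were treated for 48 hours. The treatments were 200 ng/mL doxorubicin (DOX, n = 4), recombinant mouse IL-17A at 25 ng/mL (IL-17A, n = 3), or both together at these doses (DOX+IL-17A, n = 3). The model is a single line in culture, without the immune cells that make IL-17A in a tumor. The comparison that bears on IL-17A asks whether transcripts of the G1 to S switch were higher when it was added to DOX.

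In the textbook account, D-type cyclins bind CDK4 or CDK6 in response to growth signals, and these kinases begin to phosphorylate the pocket proteins, which otherwise hold E2F factors inactive on their target genes. Freed E2F activates genes for DNA replication and also the genes of the E-type cyclins and of E2F1 itself, and cyclin E with CDK2 then completes the phosphorylation of RB. DOX is an anthracycline that damages DNA by trapping topoisomerase II, and damaged cells can stop in G1 through p21, the product of *Cdkn1a*. IL-17A is a cytokine that signals through a receptor on epithelial cells.

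The values are reads normalized by TMM to a scaled library size, counted from one read at the 3′ end of each captured transcript, so a value does not scale with the length of its transcript. Depth was between 4445592 and 16930600 reads on listed genes per library, and 3 reads, taken as the smallest amount detectable, were worth 0.183 to 0.613 units. The limit allows for counting error alone, since reads carried no molecular tags. Epithelial markers (*Epcam*, keratins and others, 8 of 8 listed) were present in all libraries, with summed values of 1992 to 2369 in control, 1749 to 2124 with IL-17A, then 999.2 to 1103 (DOX) and 883 to 1101 (DOX+IL-17A). Of the markers of cells that the culture should lack, 3 of 8 for leukocytes were listed (*Ptprc*, *Cd68* and *Itgam*), with sums of 1.86 to 6.70 in control, 5.004 to 14.2 in IL-17A, 10.5 to 20.8 in DOX and 9.61 to 10.05 in DOX+IL-17A libraries. Control replicate 1 stood apart from the other 12 libraries, with a score of 74.7 on the second principal component (20.5% of the variance) against -42.9 to 23.4. DOX replicate 1 had a summed value of 212.7 for 7 muscle markers, against 4.11 to 30.5 in the other libraries. On the second component IL-17A replicate 5 was at 1.08, against -33.3 and -42.9 in the other IL-17A libraries. DOX+IL-17A replicate 5 was at 23.4, against 10.4 and 10.6 in the others of its group. Several results are given with and without control replicate 1, and *Ccne2* after DOX also without DOX replicate 1. The ranges over alternative fits include fits without each single library.

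For orientation, 250 bases before the transcription start are shown for 4 genes, from the RefSeq promoter windows of GRCm38.p6. They were chosen to show the pocket protein that fell (*Rbl1*), a cyclin that rose (*Ccne1*) and the kinase it binds (*Cdk2*). The remaining gene is the G1/S transcript with the largest increase after DOX (*Cdc6*, which loads the replicative helicase). Each runs 5′ to 3′ on the strand of its gene, and capitals mark a match to 1 of 4 E2F words (TTTCCCGC, TTTCGCGC, TTTGCCGC and TTTGGCGC), searched on both strands. The windows are chr2:157204535-157204784 (minus strand) for *Rbl1*, chr7:38107491-38107740 (minus) for *Ccne1*, chr10:128705052-128705301 (minus) for *Cdk2* and chr11:98907901-98908150 (plus) for *Cdc6*.
Rbl1: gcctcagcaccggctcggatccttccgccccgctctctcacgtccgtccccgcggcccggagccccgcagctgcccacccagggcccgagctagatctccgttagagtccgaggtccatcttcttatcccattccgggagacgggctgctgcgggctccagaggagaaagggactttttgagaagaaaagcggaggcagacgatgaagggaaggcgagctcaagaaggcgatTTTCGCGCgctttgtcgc
Ccne1: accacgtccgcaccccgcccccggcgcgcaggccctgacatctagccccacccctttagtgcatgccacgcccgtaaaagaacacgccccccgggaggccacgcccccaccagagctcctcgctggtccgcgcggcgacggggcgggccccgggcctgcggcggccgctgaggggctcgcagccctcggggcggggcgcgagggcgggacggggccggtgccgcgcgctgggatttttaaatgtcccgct
Cdk2: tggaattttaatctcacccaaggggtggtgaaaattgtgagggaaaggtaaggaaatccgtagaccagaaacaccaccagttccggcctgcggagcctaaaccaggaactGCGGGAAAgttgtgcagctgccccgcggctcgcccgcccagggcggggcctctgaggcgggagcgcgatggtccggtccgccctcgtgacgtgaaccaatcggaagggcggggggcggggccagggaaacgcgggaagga
Cdc6: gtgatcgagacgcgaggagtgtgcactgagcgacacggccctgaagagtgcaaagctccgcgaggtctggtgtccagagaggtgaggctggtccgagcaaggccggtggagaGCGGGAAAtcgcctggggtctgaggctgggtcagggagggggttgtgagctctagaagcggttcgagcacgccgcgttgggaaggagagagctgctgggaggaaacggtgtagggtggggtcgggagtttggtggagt
The match in *Rbl1* (TTTCGCGC) began 18 bases before the start, and those in *Cdk2* and *Cdc6*, both GCGGGAAA, began 140 and 138 bases before it. The *Ccne1* window held none of these letters. Of the 10 genes, 7 had a window and 2 of these held a match, while 2.16% of all 27025 genes with a window did. *Ccnd1*, *Ccne2* and *Rb1* had no window. The windows of *E2f1* and *Cdk6*, without a match, lie inside the gene spans given below. For these genes the RefSeq start used is downstream of the start of the span, so bases before the span were not searched. Among the lists described further on, 9 of 24 G1/S transcripts with a window (37.5%), 6 of 30 other G1 regulators (20%) and 1 of 13 G2/M transcripts (7.69%) held one. A match is a description of the letters and not a measured binding site.

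The 10 genes differed widely in level. *Ccnd1*, at chr7:144929931-144939925 on the minus strand (GRCm38), was by far the most abundant, with ranges of 704 to 1134 in control, 718 to 915 in DOX, 746 to 1083 in DOX+IL-17A and 786 to 1601 in IL-17A libraries. *Ccnd3*, at chr17:47505051-47599691, lay between 0 and 2.66 units, close to the detection limit. All groups overlapped for *Ccnd1*, with its highest library under IL-17A alone.

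*Cdk4* (chr10:127063534-127067920), the main partner of cyclin D1, had means of 84.3 ± 21.5 (SD, n = 3) in control, 71.3 ± 18.7 (n = 4) with DOX, 85.4 ± 30.8 (n = 3) with DOX+IL-17A and 83.3 ± 17.3 (n = 3) with IL-17A. These means lay within 1 SD of one another. *Cdk6* (chr5:3341485-3531008), the alternative partner, was at 10.3, 6.21 and 8.37 in control replicates 1, 3 and 5 and at 3.70, 5.26, 2.24 and 4.74 in DOX replicates 1 to 4. With DOX+IL-17A it was at 5.93, 6.55 and 9.18 in replicates 2, 3 and 5, and with IL-17A alone at 11.04, 10.2 and 15.2. All DOX libraries were below all libraries of the other 3 groups, and DOX+IL-17A overlapped control.

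*Ccne1*, encoding cyclin E1 (chr7:38097984-38107534), was at 14.5, 7.85 and 4.01 in control replicates 1, 3 and 5 and at 16.3, 24.3, 26.4 and 25.4 in DOX replicates 1 to 4. It reached 35.0, 40.5 and 32.5 in DOX+IL-17A replicates 2, 3 and 5, and was at 10.7, 4.24 and 10.01 with IL-17A alone. The order of the groups was thus control and IL-17A, which overlapped, then DOX, then DOX+IL-17A, with no overlap between DOX and DOX+IL-17A. *Ccne2* (chr4:11191351-11204779), encoding cyclin E2, was at 35.5, 15.3 and 10.96 in control and at 24.9, 13.8 and 21.8 with IL-17A. The DOX libraries were at 53.8, 35.5, 46.4 and 49.4, and those with both agents at 23.1, 58.2 and 75.4. Control replicate 1, at 35.53, was just above the lowest DOX library, at 35.47, and DOX+IL-17A had the widest spread.

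*Cdk2* (chr10:128697939-128705031), the kinase of both E-type cyclins, was at 4.74, 34.5 and 15.8 in control and at 35.9, 43.4, 41.1 and 41.3 with DOX. With DOX+IL-17A it was at 45.4, 53.9 and 21.2, and with IL-17A alone at 46.4, 42.9 and 10.7. The 4 DOX libraries agreed closely, while libraries within each of the other groups were widely spread.

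*E2f1* (chr2:154559407-154569892) was at 75.8, 23.9 and 21.6 in control replicates 1, 3 and 5 and at 58.4, 64.9, 42.4 and 50.2 with DOX. With DOX+IL-17A it was at 79.3, 58.9 and 64.5, and with IL-17A alone at 31.8, 21.9 and 37.98. Control replicate 1 was 3.33 times the mean of the other 2 control libraries and above every DOX library, and without it both DOX groups lay above control and IL-17A.

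*Rb1* (chr14:73183673-73325822), the retinoblastoma gene, had low values of 1.52 to 15.5, and its 4 groups overlapped. *Rbl1* (chr2:157145893-157204534), which encodes the related pocket protein p107, was at 56.3, 39.0 and 41.3 in control and at 39.8, 32.1 and 42.2 with IL-17A. The DOX libraries were at 24.0, 14.8, 23.9 and 16.4, and those of DOX+IL-17A at 12.1, 19.2 and 14.0. Every library without DOX was above every library with DOX. Control replicate 1 was below all 12 other libraries for *Ccnd3*, *Cdk2* and *Rb1*, and above all of them for *Rbl1*.

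**Figure D1:**
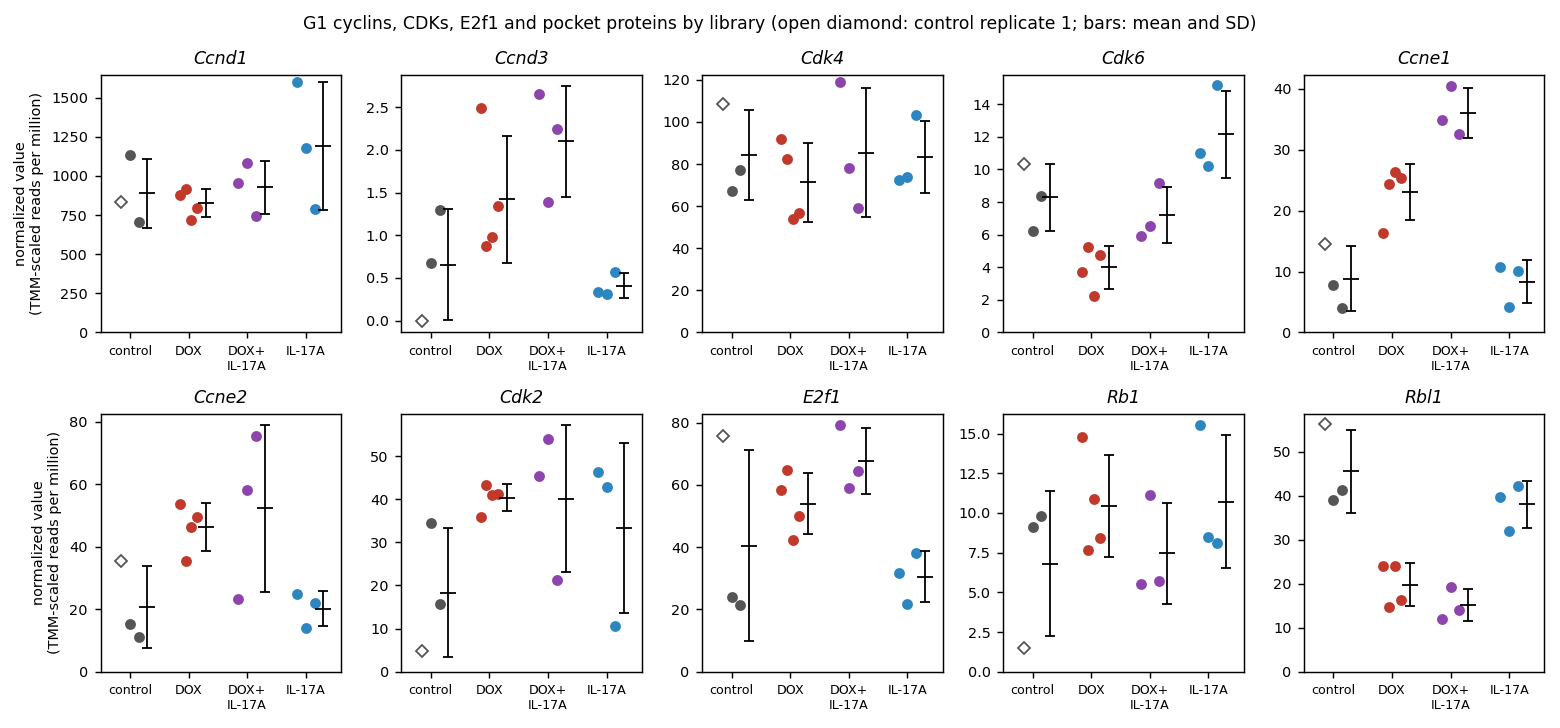
Normalized value (TMM-scaled reads, linear axis from 0) of the 10 genes in each of the 13 libraries, by condition, with the mean and SD of each condition beside the points and control replicate 1 as an open diamond. *Ccne1* is at 32.5 to 40.5 with DOX+IL-17A and 16.3 to 26.4 with DOX, and all *Rbl1* values with DOX (12.1 to 24.0) lie below those without it (32.1 to 56.3).

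Genes in the table that share a strand-opposite overlap with the last 1000 bases of a member are *LTO1* (*Ccnd1*), *Bysl* (*Ccnd3*), *Ints8* (*Ccne2*), *Tspan31* (*Cdk4*) and *Rcbtb2* (*Rb1*). The strand setting of the counting is not given in the sources used here, so reads of these pairs cannot be told apart with certainty. The partner of *Ccne2* changed by -0.25 on the log2 scale (SE 0.31, adjusted p = 0.59, limma) with DOX, whereas *Bysl* rose by 1.41 (SE 0.33, adjusted p = 0.0073) and *LTO1* by 0.88 (SE 0.28, adjusted p = 0.037). *Ccne1*, *Cdk2*, *Cdk6*, *E2f1* and *Rbl1* had no such partner at their 3′ end.

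After DOX alone, the E-type cyclins rose and the pocket protein gene *Rbl1* fell, while *Ccnd1*, *Ccnd3* and *Cdk4* did not pass the test. Against control, *Ccne1* rose 2.69-fold (95% interval 1.54 to 4.67, log2 change 1.43, SE 0.38, adjusted p = 0.014) and *Ccne2* 2.43-fold (1.34 to 4.40, log2 change 1.28, SE 0.40, adjusted p = 0.034). *Rbl1* was at 0.443 of its control level (0.302 to 0.649, log2 change -1.18, SE 0.26, adjusted p = 0.0055). The tests were made by limma on log2(value + 1) over all 12319 genes tested, with Benjamini-Hochberg adjustment over all of them, and folds are on that scale. In this comparison 22.1% of all tested genes were called, against 3 of the 10. The direction of the 3 called genes was mixed, with 2 higher and 1 lower. Of all tested genes 12.4% rose and 9.71% fell. A bulk value cannot tell a change per cell from a change in the share of cells in a given phase. The summed epithelial markers given above were lower, and the low sums of the 3 leukocyte markers higher, in all DOX than in all control libraries. The markers differed within each sum. After DOX alone, only *Cd68* of the leukocyte markers was without overlap (0 to 6.27 in control, 9.09 to 18.0 with DOX). *Cldn4*, *Cdh1* and *Esrp1* overlapped between DOX and control. The part of these markers in the results was not tested.

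The other 7 genes did not pass the threshold. *Cdk2* was 2.74-fold higher in the fit (log2 change 1.46, SE 0.55, adjusted p = 0.068) and its DOX and control libraries did not overlap. *Cdk6* was at 0.529 of control (log2 change -0.92, SE 0.32, adjusted p = 0.053), without overlap between the groups (exact permutation p = 0.0571, 2-sided, the smallest that 4 against 3 libraries allow). Counting these, 4 of the 10 genes had groups that did not overlap, beside 33.7% of all genes. *Cdk6* passed with DESeq2 (adjusted p = 0.025), with a minimum mean of 10 reads (0.0496) and without control replicate 3 (0.047). The log2 changes of *E2f1* (0.63, SE 0.35, adjusted p = 0.21), *Rb1* (0.77, SE 0.47, 0.25), *Ccnd3* (0.58, SE 0.36, 0.26), *Cdk4* (-0.25, SE 0.27, 0.54) and *Ccnd1* (-0.08, SE 0.25, 0.84) did not pass, and that of *Ccnd1* turned to 0.09 under scaling by library size. That scaling moved the median log2 change of all genes from 0.09 to 0.24 and the share of higher genes among those called from 56.1% to 71.7%, and the same 3 genes were called under it.

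The calls did not all hold when single libraries were left out. *Rbl1* passed in each of 22 alternative fits. *Ccne1* passed in 20 and lost its call without control replicate 5 (adjusted p = 0.078) and with the replicate number as a block (0.083). *Ccne2* passed in 16, and missed without control replicate 3 (0.077), control replicate 5 (0.15), or DOX replicate 1 (0.077), 3 (0.072) or 4 (0.076), and with edgeR (0.059). *Cdk2* passed without control replicate 3 (adjusted p = 0.013) and without IL-17A replicate 5 (0.034). Without control replicate 1, *E2f1* rose 1.19 on the log2 scale (SE 0.25, adjusted p = 0.0032), and *Ccne1*, *Ccne2* and *Rbl1* changed by 1.83, 1.74 and -1.02. The differences of *Cdk2* and *Rb1* then shrank to 0.76 and 0.09.

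**Figure D2:**
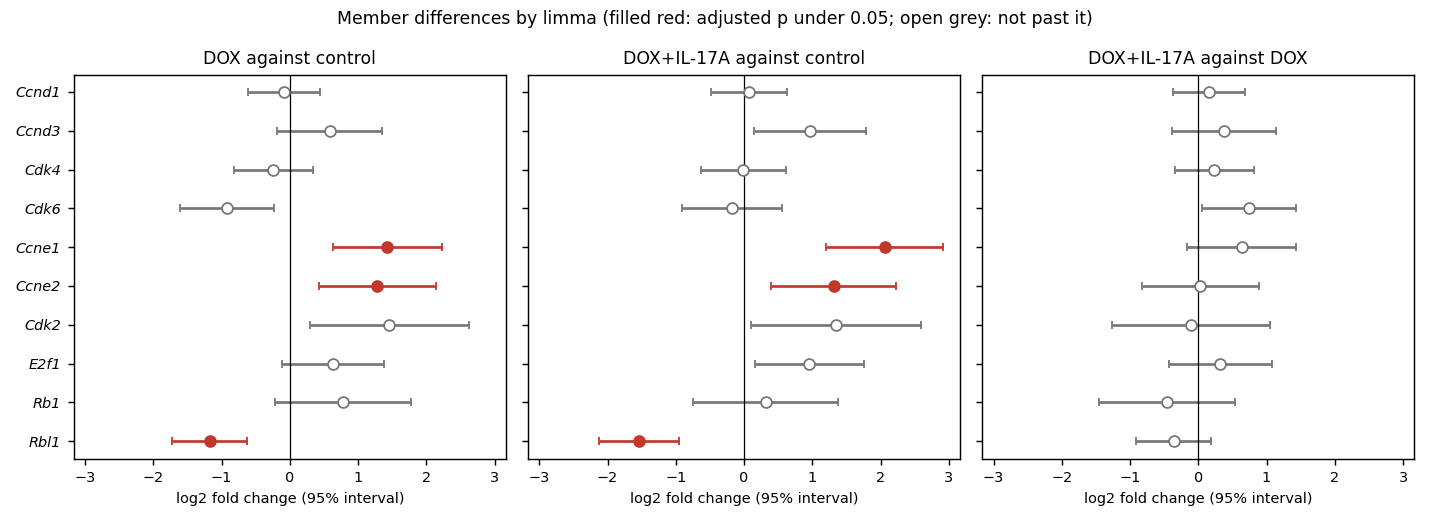
Log2 fold change on the log2(value + 1) scale with its 95% interval for the 10 genes in 3 comparisons, with filled points where the adjusted p was under 0.05. *Ccne1* and *Ccne2* lie to the right and *Rbl1* to the left of 0 in both comparisons with control, and no point is filled for DOX+IL-17A against DOX, where *Ccne1* is at 0.63 and *Cdk6* at 0.75.

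With DOX+IL-17A, the same 3 genes passed the test against control. *Ccne1* rose 4.17-fold (95% interval 2.31 to 7.54, adjusted p = 0.0034 by limma), *Ccne2* rose 2.48-fold (1.31 to 4.69, adjusted p = 0.048), and *Rbl1* was at 0.345 of control (0.229 to 0.519, adjusted p = 0.0021). Of all tested genes 17.7% were called in this comparison. *Ccne1* and *Rbl1* passed in all 22 alternatives and *Ccne2* in 9, with an adjusted p between 0.005 and 0.18. *Ccne2* lost its call without any 1 of 11 libraries, and kept it without control replicate 1 (0.005) or without DOX+IL-17A replicate 2, the lowest of its group.

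*E2f1* was 1.94-fold higher (log2 change 0.96, SE 0.38, adjusted p = 0.091) and rose 1.52 on the log2 scale without control replicate 1 (SE 0.26, adjusted p = 0.00091). It also passed with voom (adjusted p = 0.049) and with scaling by library size (0.038). *Cdk6*, in contrast to its low values after DOX alone, was at 0.886 of control (95% interval 0.532 to 1.48). The log2 changes of *Cdk2* and *Ccnd3* were 1.35 (adjusted p = 0.12) and 0.96 (0.097), and those of *Rb1*, *Ccnd1* and *Cdk4* were 0.32, 0.07 and -0.01. *Cdk2* passed without control replicate 3 (adjusted p = 0.027). The signs of *Ccnd1* and *Cdk4* turned under other settings, and that of *Rb1* turned to -0.37 without control replicate 1, so none of these has a direction here. DOX and DOX+IL-17A were compared with the same control libraries, so both comparisons share whatever is particular to control replicate 1.

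**Figure D3:**
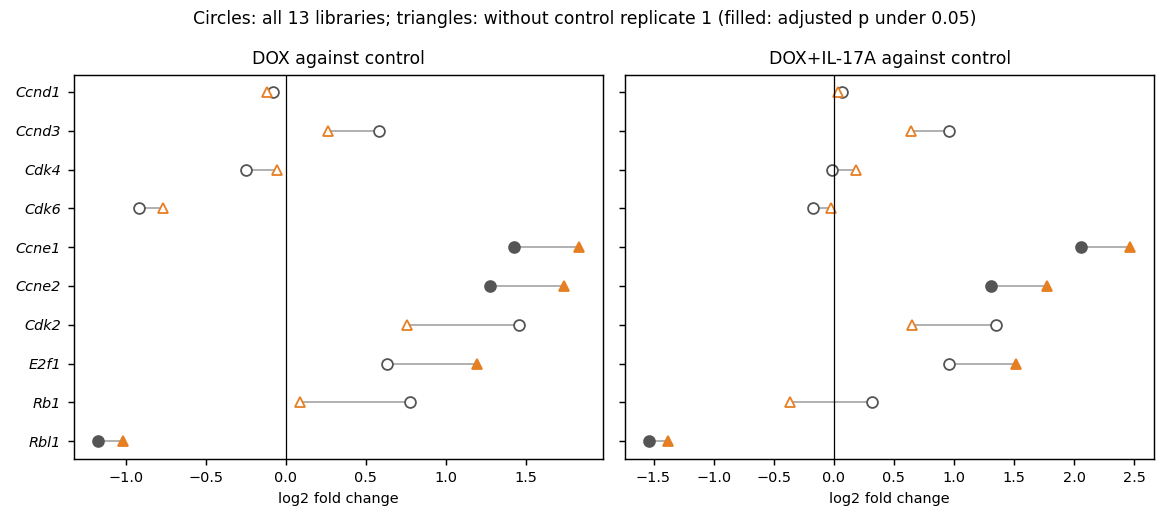
Log2 fold change of the 10 genes against control with all 13 libraries (circles) and without control replicate 1 (triangles), filled where the adjusted p was under 0.05. *E2f1* moves from 0.63 to 1.19 (DOX) and from 0.96 to 1.52 (DOX+IL-17A) and becomes filled, *Cdk2* and *Rb1* move toward or past 0, and *Ccne1*, *Ccne2* and *Rbl1* are filled in both fits.

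When IL-17A was added to DOX, none of the 10 genes passed the test against DOX alone. The 2 that lay highest were *Cdk6*, 1.68-fold (95% interval 1.04 to 2.70), and *Ccne1*, 1.55-fold (0.892 to 2.70). For both, all 3 DOX+IL-17A libraries were above all 4 DOX libraries (exact permutation p = 0.0571, 2-sided, the smallest possible here). In the limma fit the adjusted p was 0.72 for *Cdk6* (unadjusted p = 0.036) and 0.96 for *Ccne1* (unadjusted p = 0.11). Of all genes, 0.455% were called in this comparison, 6.35% had an unadjusted p under 0.05 against 1 of the 10, and 4.66% were higher without overlap against 2 of the 10. limma, voom, edgeR and DESeq2 each called 0 of the 10, and at an unadjusted p under 0.05 voom had 2 (*Ccne1* and *Cdk6*) and the other 3 had *Cdk6* only. The adjusted p stayed between 0.34 and 1 for *Ccne1* and between 0.46 and 1 for *Cdk6* over the alternatives, and both log2 changes were positive in all 22, from 0.48 to 0.85 and from 0.55 to 0.94.

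For the other 8 genes the intervals show what these libraries can and cannot bound. *Ccnd1* was at 1.11-fold (95% interval 0.775 to 1.60) and *Cdk4* at 1.18-fold (0.788 to 1.76), so that neither interval reaches a 2-fold change. *E2f1* was at 1.25-fold (0.746 to 2.10), *Ccne2* at 1.02-fold (0.563 to 1.85) and *Cdk2* at 0.929-fold (0.415 to 2.08). The pocket proteins were on the lower side, with *Rbl1* at 0.779-fold (0.531 to 1.14) and *Rb1* at 0.729-fold (0.365 to 1.45). *Ccnd3* had values of 0.876 to 2.50 in the DOX libraries and 1.39 to 2.66 where IL-17A was added, on 7 to 36 reads. The median log2 difference of the 10 genes was 0.20, beside -0.03 for all genes.

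With IL-17A alone, none of the 10 genes passed the test against control. The 2 groups overlapped for each of them, and the share of all genes without overlap is not given for this comparison. None of the 10 had an unadjusted p under 0.05, beside 3.08% of all genes. By limma 0.00812% of all genes were called. The largest log2 differences were those of *Cdk2* (0.94, SE 0.59, adjusted p = 0.96) and *Rb1* (0.79, SE 0.50, adjusted p = 0.96), in which control replicate 1 was the lowest of all libraries. Without it they were 0.25 and 0.11. *Cdk6* was at 1.42-fold (95% interval 0.852 to 2.36), *Ccnd1* at 1.31-fold (0.887 to 1.93) and *Ccne1* at 0.993-fold (0.550 to 1.80). voom, edgeR and DESeq2 also called 0 of the 10.

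In cells that all had IL-17A, adding DOX raised *Ccne1* 4.20-fold (95% interval 2.32 to 7.59, adjusted p = 0.0047) and lowered *Rbl1* to 0.408 (0.271 to 0.615, adjusted p = 0.0081). Here 13.3% of all genes were called, against 2 of the 10. *E2f1* was 2.21-fold higher (adjusted p = 0.056), *Ccnd3* 2.17-fold (0.067) and *Ccne2* 2.32-fold (0.076), and these passed without control replicate 1, which is in neither group and enters the fit through the shared estimate of spread (adjusted p = 0.0029, 0.037 and 0.021). *E2f1* also passed without control replicate 3 (adjusted p = 0.047) or 5 (0.046), and *Ccne2* without DOX+IL-17A replicate 2 (0.024). *Ccnd3* rested on 2 to 7 reads in the IL-17A libraries, and the ratio of its mean values was 5.13. Its overlapping partner *Bysl* rose by 1.95 on the log2 scale (SE 0.35, adjusted p = 0.0029, limma). Whether IL-17A acted differently once DOX was present was tested as an interaction term, which 0 of the 10 genes passed, with none at an unadjusted p under 0.05 (4.51% of all genes were, and 0% were called). For *Ccne1* this term was 0.64 on the log2 scale (95% interval -0.52 to 1.81). *Rb1*, the gene nearest to the threshold, was at -1.25 (-2.71 to 0.21, unadjusted p = 0.088 and adjusted p = 0.90 by limma). The *Ccne1* libraries with DOX+IL-17A were thus the highest of all 13, but a larger effect of IL-17A in the presence of DOX than in its absence was not shown.

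Other regulators of G1 and the transcripts made at the G1/S boundary were described from 2 lists. Of 38 G1 regulators, 34 were tested, and no entry was found under the names *Ccna1*, *Cdkn1c*, *Cdkn2a* and *Cdkn2b*. After DOX, 7 rose and 2 fell, beside 12.4% and 9.71% of all tested genes, and the median log2 change was 0.40 beside 0.09 for all genes. *Trp53*, encoding p53, rose most, from a mean of 2.40 in control to 9.31 with DOX (log2 change 1.62, SE 0.40, adjusted p = 0.010). It rested on few reads, 13 to 28 in control and 71 to 108 in DOX libraries. *Cdc25a*, a phosphatase that activates CDK2, rose from a mean of 43.5 to 88.2. The repressor *E2f7* (mean 33.4 in control and 63.4 with DOX), and *Skp2* (log2 change 0.68) and *Cks1b* (0.94), which mark p27 for destruction, also passed. Without control replicate 1 these 3 were at 0.59 (adjusted p = 0.16), 0.57 (0.063) and 0.44 (0.14) and did not pass. *Cdkn2c*, encoding the CDK4 and CDK6 inhibitor p18, fell (log2 change -1.71, SE 0.36, adjusted p = 0.0041), as did *Mnat1*, a subunit of the CDK-activating kinase (-0.70, adjusted p = 0.0095). With DOX+IL-17A, 7 rose and 4 fell of the 34, beside 17.7% of all genes called in either direction, with a median of 0.24. Of those that fell, *Cdkn2c* fell most (log2 change -1.61). The remaining D-type cyclin gene, *Ccnd2*, is also among the 34. It was at 133.7 to 232.3 in control and 213.0 to 228.7 in DOX libraries, which overlapped. Without control replicate 1, *Ccnd2* rose by 0.68 on the log2 scale after DOX (adjusted p = 0.0097 by limma). In the same fit it was at 0.49 with DOX+IL-17A (adjusted p = 0.061 by limma).

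*Cdkn1a* and *Cdkn1b* encode the CDK inhibitors p21 and p27. *Cdkn1a* ranged from 28.8 to 31.3 in control libraries, from 38.9 to 66.5 in DOX, from 64.6 to 94.3 in DOX+IL-17A and from 54.1 to 118.5 in IL-17A libraries. All libraries of the treated groups were above all control libraries. Its log2 change against control was 0.69 for DOX (SE 0.27, adjusted p = 0.073), 1.28 for the combination (SE 0.28, adjusted p = 0.0071) and 1.43 for IL-17A (SE 0.28, adjusted p = 0.25, unadjusted p = 0.00013). *Cdkn1b* fell by 0.97 on the log2 scale with DOX+IL-17A (SE 0.32, adjusted p = 0.047) and *Fbxw7*, which targets cyclin E for degradation, fell by 1.05 (SE 0.24, adjusted p = 0.0088). With DOX alone *Cdkn1b* was at -0.75 (SE 0.30, adjusted p = 0.082), and at -1.23 without control replicate 1 (0.0006). Of the E2F partners and relatives, *E2f2*, *E2f3*, *E2f8*, *Tfdp1* and the third pocket protein gene *Rbl2* did not pass in any of these comparisons, and *Rbl2* had log2 changes of -0.83 after DOX (adjusted p = 0.14) and -1.02 after the combination (0.10).

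Of 30 G1/S transcripts, many of them textbook E2F targets, 12 rose and 2 fell after DOX, beside 22.1% of all genes called in either direction, with a median log2 change of 0.68. *Cdc6* was at 16.5 to 21.1 in control and 71.2 to 86.6 with DOX (log2 change 1.99, SE 0.21, adjusted p = 2.4e-05). *Orc1*, a subunit of the origin recognition complex, rose by 1.55 (SE 0.28, adjusted p = 0.0015), while *Pola1*, encoding the catalytic subunit of DNA polymerase alpha, fell from a mean of 157.8 to 72.3 (adjusted p = 0.020). Control replicate 1 was at 254.6 for *Pola1* and the other 2 control libraries had a mean of 109.4, and without it the log2 change was -0.60 (adjusted p = 0.065). With DOX+IL-17A, 12 rose and 1 fell, beside 17.7% of all genes called, with a median of 0.58. Among them were *Cdc6* (1.99), *Orc1* (1.61) and *Rrm2*, a subunit of ribonucleotide reductase (1.58, SE 0.35, adjusted p = 0.0068). Of 16 G2/M transcripts, 1 (*Aurka*, the mitotic kinase) rose in each comparison, with medians of 0.23 and 0.06. Without control replicate 1, 5 G1 regulators rose and 3 fell after DOX, and 14 G1/S transcripts rose and 0 fell. Under scaling by library size the counts after DOX were 11 higher and 2 lower for G1 regulators, 17 and 1 for G1/S transcripts, and 3 and 0 for G2/M transcripts.

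Adding IL-17A to DOX moved none of the 34 G1 regulators, 30 G1/S transcripts or 16 G2/M transcripts past the adjusted threshold in limma, and at an unadjusted p under 0.05 the counts were 1, 0 and 0. That 1 was *Cdkn1a* (log2 difference 0.58, SE 0.27, unadjusted p = 0.044, adjusted p = 0.76). The G1 regulators were on either side in equal number, 17 positive and 17 negative, with a median of -0.04. The G1/S transcripts were positive in 11 and negative in 19, with a median of -0.08, and *Cdc6* and *Orc1* were at -0.0033 and 0.06. All genes together had a median of -0.03. The list medians and counts are descriptions and were not tested.

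**Figure D4:**
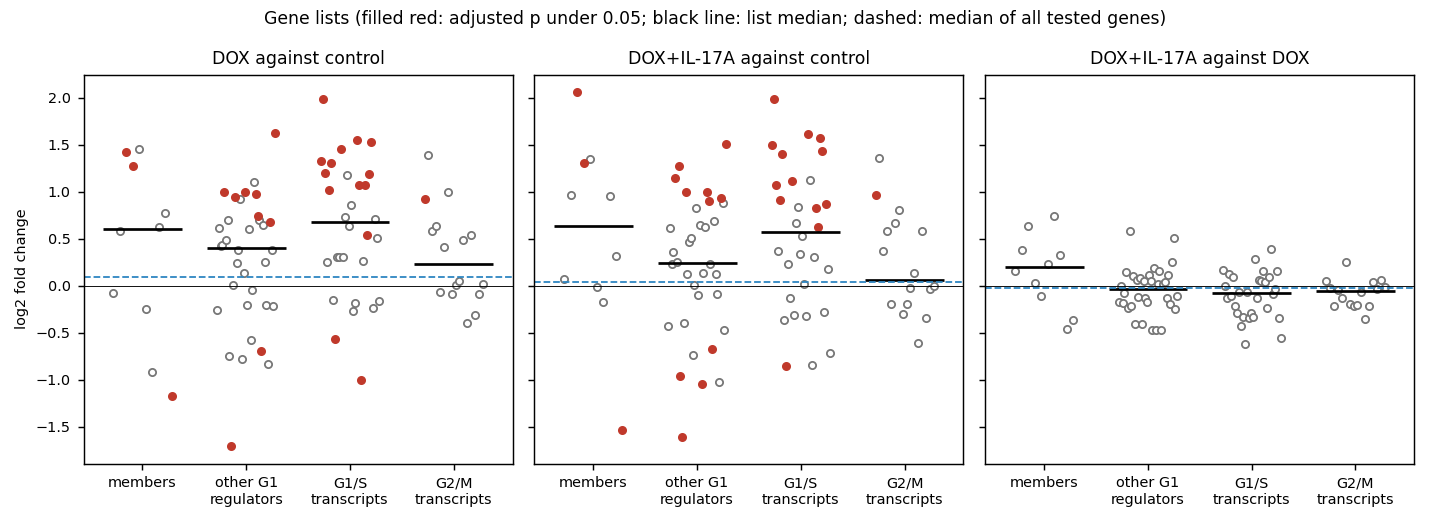
Log2 fold change of each gene of 4 lists (the 10 members, 34 other G1 regulators, 30 G1/S transcripts and 16 G2/M transcripts) in 3 comparisons, with filled red points where the adjusted p was under 0.05, a black line at each list median and a dashed line at the median of all tested genes. After DOX the G1/S median is 0.68 with 12 genes higher and 2 lower, while for DOX+IL-17A against DOX no point is filled and the G1/S median is -0.08.

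The genes whose pattern over the 13 libraries was most like that of each member were looked for among 8198 genes with a mean value of at least 10, by Pearson's r of log2(value + 1). The libraries fall into treatment groups and share control replicate 1, so a high r describes that shared order and no p is given. The nearest genes were *Psme3*, *Acap3* and *Cycs* for *Ccne1* (r = 0.96, 0.96 and 0.95), *Pclaf*, *Atad2* and *Ddx27* for *Ccne2* (0.97, 0.96 and 0.96), and *Mtss1*, *Atrx* and *Ep300* for *Rbl1* (each 0.96). For *Cdk2* they were *Cdk1*, *Cox17* and *Xpot* (each 0.98), and for *E2f1* *Nhp2*, *Tmem147* and *Usp39* (0.98, 0.97 and 0.97). *Cdk6* was nearest to *Tns4* (0.94), *Cdk4* to *Prex2* (0.91), *Rb1* to *Pld3* (0.92) and *Ccnd3* to *Atp6v0e* (0.90). *Ccnd1*, the most abundant member, had the lowest best match, *Ptpn9* at 0.85.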

How the data were processed

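The submitters sequenced 3′ ends of polyadenylated RNA (QuantSeq 3′ FWD, single 75 base reads) of 13 cultures. Per the labels and the methods, reads were trimmed with Trimmomatic, checked with FastQC, aligned to mm10 with STAR, counted per gene with featureCounts and normalized by TMM. The deposited table holds this normalized signal per gene and library, which the authors also tested with voom and limma. The annotation and strand setting of the counting are not given in the sources used here. The table has 13223 entries, and a second identical entry of 1 gene was dropped. The value of 1 read was found in each library from its low values, and all values (100%) were whole reads within 0.01 read, which gave the depths and the reads for the count tests. 

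Libraries were grouped by their labels. The methods speak of biological replicates in general, and neither they nor the labels say whether the libraries of a group came from separate experiments or from wells of the same one, so p-values measure the spread between these libraries. The main test was limma 3.58.1 with trend on log2(value + 1), all 13 libraries, condition as the only factor (9 residual degrees of freedom), on 12319 genes kept by filterByExpr of edgeR 4.0.16. A gene was called at a Benjamini-Hochberg adjusted p under 0.05. Alternatives used other tools on the recovered reads (voom, DESeq2 1.42.0, edgeR's quasi-likelihood test), a pseudocount of 0.1, no filter or a minimum mean of 10 reads, scaling by library size, a block for the replicate number, the compared groups alone, or all libraries but 1. The scripts were tested on simulated counts with changes placed in DOX+IL-17A against DOX. There limma recovered 10 of 100 2-fold changes and 63 of 100 4-fold changes, with 4 false calls. A 2-fold change could therefore be missed in most cases. Single values were compared by exact permutation tests.

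The 10 genes and the lists of G1 regulators, G1/S transcripts, G2/M transcripts and cell markers were chosen with earlier results of these data known. All 10 genes are named, as are the 3 called genes of the first 2 lists that rose most and the 3 that fell most, and *Cdkn1a*, *Cdkn1b*, *Cdkn2a*, *Rbl2*, *E2f2*, *E2f3*, *E2f7*, *E2f8* and *Tfdp1*. Other genes named as members of a list or as overlapping partners were named after their values were seen. Fibroblast, muscle, red blood cell and liver markers had summed values of 27.9 to 143, 4.11 to 212.7, 0 to 66.5 and 0 to 2.25. Positions are from GENCODE M21 and promoter windows from RefSeq, both on GRCm38. R 4.3.3, python 3.11.15, numpy 2.4.6, pandas 2.3.3, scipy 1.17.1 and matplotlib 3.10.9 were used.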

Additional observations from a re-analysis of the deposited data

How the results depend on the processing

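The 10 genes had the same direction and side of the threshold in 494 of 530 single-gene results under alternatives other than leaving out a library. None of them passed for DOX+IL-17A against DOX or IL-17A against control under any alternative. DESeq2 called 4 genes for DOX+IL-17A against IL-17A and scaling by library size called 5, against 2 in the main test. That scaling moved the calls among all genes in this comparison from 802 higher and 831 lower to 1417 and 538. With 1 library left out, the number of the 10 genes called there ranged from 2 to 5 (5 without control replicate 1). For DOX against control it ranged from 1 to 4, with 1 (*Rbl1*) without control replicate 5. The cause was not tested. At these depths *Ccnd3* rested on 0 to 36 reads.

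Signs turned in differences that did not pass the threshold. Under scaling by library size the log2 change was 0.095 for *Ccnd1* (DOX against control), and for *Cdk4* 0.16 (DOX+IL-17A against control) and 0.21 (DOX+IL-17A against IL-17A). edgeR gave *Cdk4* 0.021 and 0.037 in the same 2 comparisons, and DESeq2 0.045 in the second. DESeq2 gave 0.011 for *Cdk2* in DOX+IL-17A against DOX. In IL-17A against control, *Ccnd3* was at 0.062 with a pseudocount of 0.1, *Ccne1* at 0.17 and *Cdk4* at 0.033 with voom, and *Ccne2* at -0.064 with DESeq2 and -0.018 with edgeR. The interaction of *Ccne2* was 0.26 with DESeq2 and 0.20 with edgeR. 

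With single libraries left out, log2 differences that crossed 0 had these ranges. In DOX against control they were -0.24 to 0.11 (*Ccnd1*). In DOX+IL-17A against control they were -0.082 to 0.26 (*Ccnd1*), -0.28 to 0.22 (*Cdk4*), -0.37 to 0.68 (*Rb1*). In DOX+IL-17A against DOX they were -0.31 to 0.52 (*Ccne2*), -0.36 to 0.29 (*Cdk2*), -0.033 to 0.47 (*Cdk4*). In IL-17A against control they were -0.48 to 0.12 (*Ccnd3*), -0.42 to 0.40 (*Ccne1*), -0.24 to 0.56 (*Ccne2*), -0.17 to 0.19 (*Cdk4*), -0.51 to 0.38 (*E2f1*). In DOX+IL-17A against IL-17A they were -0.25 to 0.80 (*Cdk2*), -0.27 to 0.23 (*Cdk4*). In the interaction they were -0.50 to 0.013 (*Ccnd1*), -0.53 to 0.43 (*Ccne2*), -0.026 to 0.48 (*Cdk4*), -0.051 to 0.83 (*E2f1*), -0.29 to 0.023 (*Rbl1*).

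The replicate numbers shared by conditions were not taken as pairing the libraries, since no label says what a number marks and not every same-numbered pair correlated by over 0.1. Over 13 same-numbered pairs the deviations from the group means correlated by 0.15 on average (-0.18 to 0.49, 8 over 0.1) and over 50 other pairs by -0.037 (13 over 0.1), and 7 of 12 libraries with a partner correlated best with their own number. Whether the numbers mark a shared batch cannot be told from this. With the replicate number as a block, 2 of the 10 genes passed for DOX against control (*Ccne2* and *Rbl1*), 4 for DOX+IL-17A against control (*Ccne1*, *Ccne2*, *E2f1* and *Rbl1*), 3 for DOX+IL-17A against IL-17A (*Ccne1*, *E2f1* and *Rbl1*) and 0 in the other comparisons. The blocked fit turned *Ccnd1* to -0.0074 and *Cdk4* to 0.071 in DOX+IL-17A against control, and in IL-17A against control *Ccne1* to 0.014, *Cdk4* to 0.075 and *E2f1* to 0.00063.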
